A study of Homo sapiens with 6 samples.

Results

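The large satellite blocks of chromosomes 1, 9 and 16 are the long runs of tandem repeats that lie at and beside the centromeres of these chromosomes. Here they are the T2T-CHM13 intervals chr1 from 121.5 to 142.0 Mb, chr9 from 45.0 to 76.7 Mb and chr16 from 35.5 to 52.2 Mb. The members are the nascent-strand peaks that start inside these intervals. There were 521 of 330265 listed peaks in siORCA 1, 382 of 198518 in siORCA 2, 399 of 181215 in control 1 and 490 of 235865 in control 2. In all, 1792 of 945863 listed peaks lay in the blocks, and they were chosen by position alone. The blocks span 20.5, 31.7 and 16.7 Mb, 68.9 Mb together, which is 13.9% of the 3 chromosomes. These are lengths in the T2T-CHM13 assembly, and the lengths in the cells used here are not given.

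All samples are U2OS, a human osteosarcoma cell line. They were transfected with an siRNA against ORCA (siORCA, n = 2) or with the gl3 control siRNA (control, n = 2). The assay was nascent-strand sequencing (NS-seq), in which DNA is size fractionated and treated with exonuclease so that short, newly made strands from replication origins are enriched. Genomic DNA samples of both transfections are labelled as well and were not analysed here. No label states whether replicates were separate cultures. The p-values below therefore reflect differences among these samples, which may be technical in origin. The assay reads DNA, so the ORCA level itself could not be checked. Without read counts in the peak lists the depth is unknown. The lists differed in length, covering 86.2 and 64.0 Mb in siORCA 1 and 2 and 58.5 and 67.1 Mb in control 1 and 2.

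Alpha satellite is the repeat on which human centromeres form. Human satellites 2 and 3 make up the constitutive heterochromatin beside the centromeres of chromosomes 1, 9 and 16, which is packed with histone H3 lysine 9 trimethylation, holds few genes and is copied late in S phase. Replication starts from origins licensed by the origin recognition complex and the MCM helicase, and ORCA, encoded by LRWD1, is a partner of that complex which is also found at heterochromatin. Short reads from near-identical repeat copies are hard to place. How such reads were placed for these lists is not given, and its part in every result below was not tested.

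Peaks were far sparser inside the blocks than on the rest of the same chromosomes. In siORCA 1 the blocks held 7.56 peaks per Mb, against 138 peaks per Mb on the rest. The blocks held 5.54 peaks per Mb in siORCA 2, against 83.5 on the rest. In control 1 the blocks held 5.79 peaks per Mb and the rest 78.3, and in control 2 the blocks held 7.11 and the rest 95.9. No block value came near any value of the rest. On average the blocks held 6.50 ± 0.986 peaks per Mb and the rest 99.0 ± 27.2 (SD, n = 4 each), a log2 ratio of −3.90 with an SD of 0.21 over the 4 samples. The rest was between 13.5 and 18.3 times denser. All 4 samples gave the same direction, and the two-sided exact permutation test over the samples gave p = 0.125, the smallest this design allows.

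Density differed among the blocks. The block of chromosome 9 was the sparsest in every sample, with 4.51 and 2.33 peaks per Mb in siORCA 1 and 2 and 2.65 and 3.94 peaks per Mb in control 1 and 2, against 117, 65.1, 63.3 and 83.1 on the rest of chromosome 9. In the block of chromosome 1 there were 10.1 and 8.68 peaks per Mb in siORCA 1 and 2 and 9.56 and 10.5 in control 1 and 2. The block of chromosome 16 held 10.2 and 7.78 in siORCA 1 and 2 and 7.13 and 8.98 in control 1 and 2. The blocks of chromosomes 1 and 16 overlapped in density, and both lay above the block of chromosome 9 in all 4 samples. Of 67 windows of 1 Mb lying wholly inside a block, 22 held no peak in any list and 56, or 83.6%, held a mean under 5 peaks per list. Among the 3065 other windows of the genome 43 held no peak and 3.95% held a mean under 5, with a median of 56.25 peaks.

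**Figure D1:**
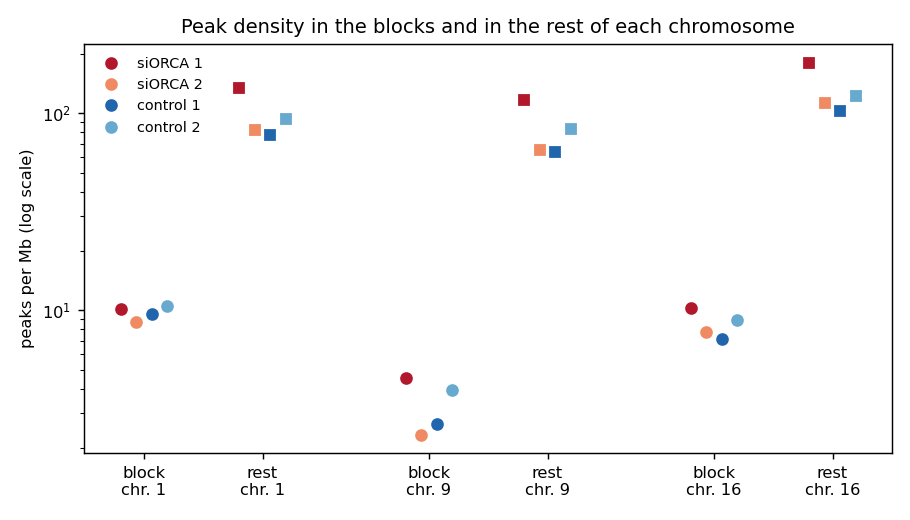
Peaks per Mb on a log axis in each block (circles) and in the rest of its chromosome (squares), 1 point per sample. Block values lie between 2.33 and 10.5 peaks per Mb, all below the rest, whose values lie between 63.3 and 181.

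Most of the length of the blocks lay in long stretches with no peak. Stretches of at least 100 kb without a peak in the sample's own list took up 94.3% and 94.1% of the blocks in siORCA 1 and 2, and 92.2% and 91.4% in control 1 and 2. On the rest of the chromosomes they took up 3.91% and 19.7% in siORCA 1 and 2, and 14.8% and 7.37% in control 1 and 2. The difference was 81.5 percentage points with an SD of 7.12 over the 4 samples (two-sided exact permutation test, p = 0.125, the smallest possible). With the lists combined, 101 stretches of at least 100 kb held no peak of any sample, and they made up 87.7% of the blocks. On the rest, 18 such stretches made up 0.54%. Of the stretches in the blocks 9 were at least 1 Mb long and took up 44.6% of the block length, whereas the longest on the rest was 189 kb.

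The longest stretches with no peak in any list were on chromosome 9. They ran over chr9:63684575-71391725 (7.71 Mb), chr9:58729575-63684455 (4.95 Mb) and chr9:51614489-56290136 (4.68 Mb), separated by sites listed in single samples. On chromosome 1 the longest was chr1:121613731-126727500 (5.11 Mb), followed by chr1:138113987-138993826 (0.880 Mb) and chr1:137174049-137748821 (0.575 Mb). The first of these lies before the dense island described next, and the other pair lie after it. On chromosome 16 they were shorter, at chr16:44099704-45515644 (1.42 Mb), chr16:35843078-36994477 (1.15 Mb) and chr16:41786954-42707159 (0.920 Mb). Within single lists the longest stretch was 11.9 and 27.9 Mb in siORCA 1 and 2 and 25.2 and 12.7 Mb in control 1 and 2, all on chromosome 9. In the window counts, chr1 from 122 to 126 Mb held no peak in any list, and the barest complete windows of chromosome 16 held 1 merged region each.

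**Figure D2:**
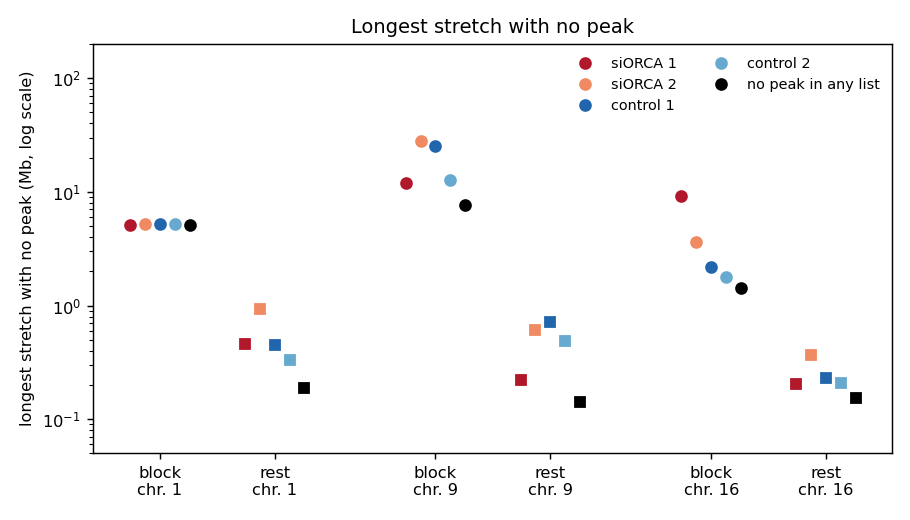
Longest stretch with no peak, in Mb on a log axis, for each block (circles) and the rest of its chromosome (squares), per sample and, in black, with no peak in any list. With no peak in any list, the blocks of chromosomes 1, 9 and 16 hold stretches of 5.11, 7.71 and 1.42 Mb, while the longest on the rest of the 3 chromosomes is 189 kb.

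Most peaks inside the blocks were gathered in 1 island per block. The islands were drawn after the values were seen. The outermost 0.5 Mb at each end were set aside, 100 kb bins with at least 5 peaks over the 4 lists were joined over at most 3 emptier bins, and the run with the most peaks was taken. Single bins past that count also lay elsewhere on chromosomes 1 and 16. The choice of the fullest run fixes its density, which is a description with no test. Since the ends were set aside, the rule also keeps the islands away from the block borders. The islands lay at chr1 from 126.8 to 129.1 Mb, chr9 from 47.5 to 48.9 Mb and chr16 from 37.9 to 39.5 Mb. Together they span 5.3 Mb of the 68.9 Mb and held 77.2% and 77.5% of the block peaks in siORCA 1 and 2, and 69.9% and 65.3% in control 1 and 2. Island density was 75.8 and 55.8 peaks per Mb in siORCA 1 and 2 and 52.6 and 60.4 in control 1 and 2. Those densities were below that of the rest of the chromosomes in each sample and above the block average. No repeat annotation of T2T-CHM13 was used here, so which repeat or other sequence the islands hold is not given, and they carry no satellite name.

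Within the islands the busiest window was chr1 from 128 to 129 Mb, with 214 merged regions of which 42 were listed in all 4 samples. A merged region is an interval in which peaks of any lists touch or overlap. On chromosome 16 the busiest window was 38 to 39 Mb, with 161 merged regions and 22 in all samples, and on chromosome 9 it was 48 to 49 Mb, with 130 and 27. Each of these counts is the highest in its block.

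**Figure D3:**
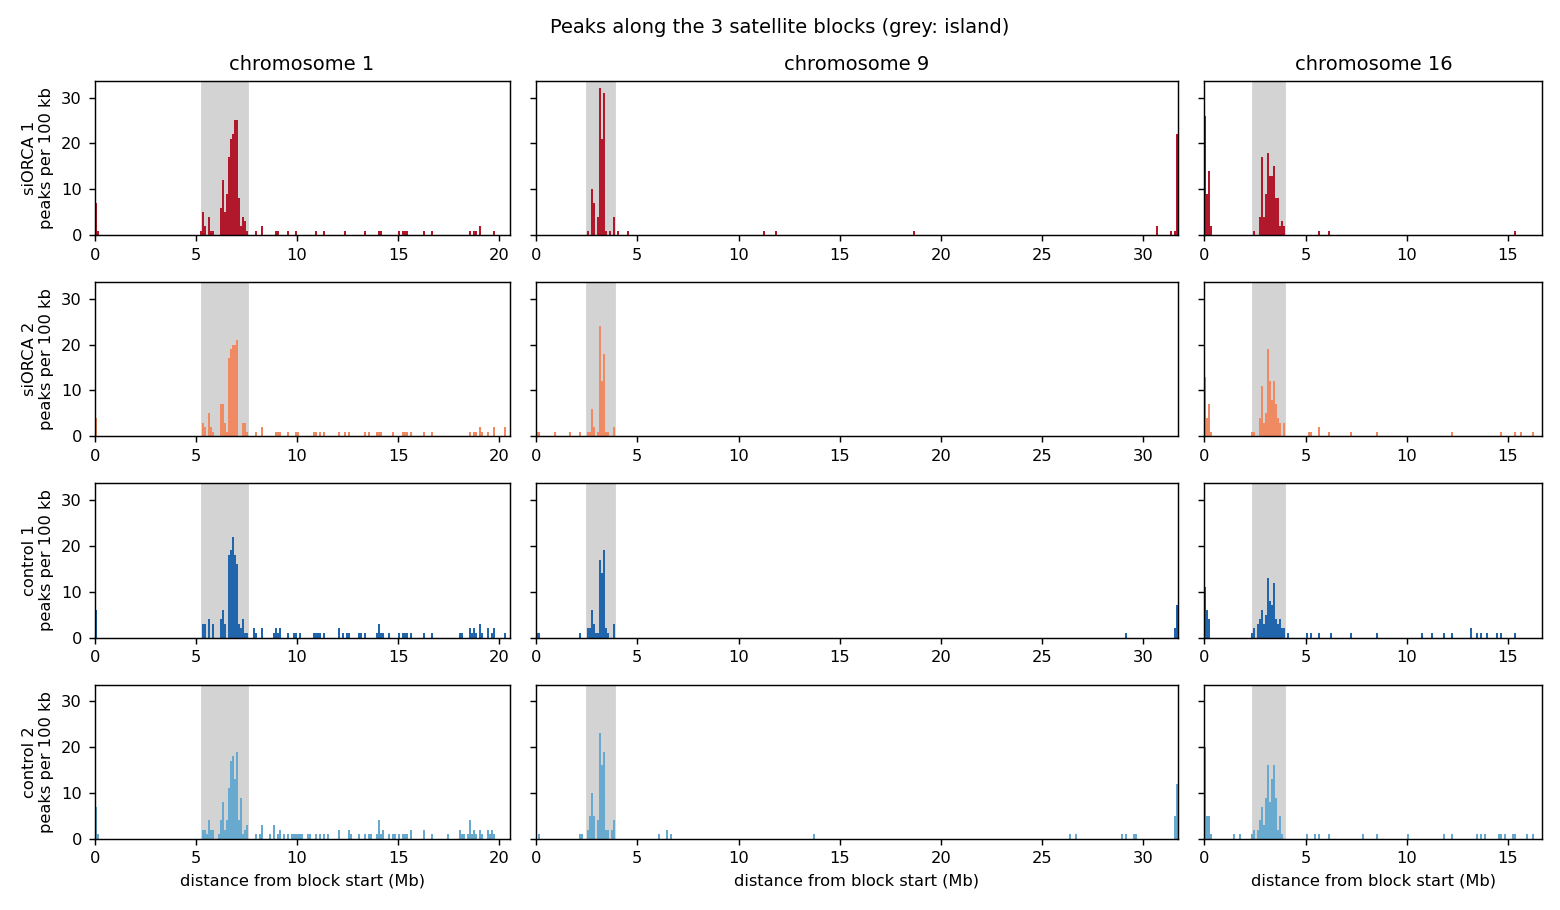
Peaks per 100 kb along each block, by distance from the block's start in Mb, 1 row per sample, with the island shaded in grey. The islands hold between 65.3% and 77.5% of the block peaks of a sample, and most bins outside them are empty.

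The stretches between the islands and the short-arm ends, 8.7 Mb in all, held 1 and 4 peaks in siORCA 1 and 2 and 2 and 5 peaks in control 1 and 2. The outer stretches, on the long-arm side of the islands, span 51.9 Mb and held 35 and 48 peaks in siORCA 1 and 2 and 79 and 107 in control 1 and 2. On chromosome 9 the outer stretch ran for 27.3 Mb and held 7 and 0 peaks in siORCA 1 and 2 and 1 and 11 in control 1 and 2. Its 19 merged regions were each listed in 1 sample only, between chr9:49055457 and chr9:75689151, and they were between 91 and 332 bp wide. None passed a −log10 q of 3, the highest being 2.86, and their fold enrichment lay between 3.08 and 3.98. Fold enrichment and q are the authors' values for each peak and are used here to describe peaks within their lists. Set side by side between lists they describe lists of unknown depth.

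The outermost 0.5 Mb of the blocks were uneven. On chromosome 16 the short-arm end was about as dense as the island, with 102 and 50 peaks per Mb in siORCA 1 and 2 and 42 and 62 in control 1 and 2. It held 51 and 25 peaks in siORCA 1 and 2 and 21 and 31 in control 1 and 2, more in each sample than the adjoining 0.5 Mb outside, which held 40 and 13 in siORCA 1 and 2 and 7 and 20 in control 1 and 2. At the long-arm end of the chromosome 9 block there were 24 and 0 peaks in siORCA 1 and 2 and 9 and 17 in control 1 and 2, so the value of siORCA 2 lay apart from the others. The long-arm ends of the blocks of chromosomes 1 and 16 held at most 2 peaks in any sample, against 23 to 49 in the adjoining 0.5 Mb outside. Compared with the block average, the intervals as given thus take in denser sequence at the short-arm border on chromosome 16. Outside siORCA 2, the same held at the long-arm border on chromosome 9, where 33 of 41 merged regions were listed in 1 sample only. In every sample both borders were less dense than the rest of their chromosome.

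Peak width did not separate the blocks from the rest beyond the spread between samples. The median width in the blocks was 244 and 272.5 bp in siORCA 1 and 2, against 171 and 215 bp on the rest. In control 1 and 2 it was 206 and 184 bp in the blocks, against 225 and 193 bp on the rest. Block peaks were thus the wider ones in both siORCA samples and the narrower ones in both control samples. The mean difference was 25.6 bp with an SD of 46.4 (two-sided exact permutation test, n = 4, p = 0.5). On chromosome 9 alone block peaks were wider in all 4 samples, by 29 and 64 bp in siORCA 1 and 2 and by 17.5 and 35 bp in control 1 and 2 (exact p = 0.125). The widest peaks of the blocks measured 2097 and 2161 bp in siORCA 1 and 2 and 1884 and 1457 bp in control 1 and 2, while the widest on the rest measured between 4997 and 6131 bp.

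Width also varied between the zones of the blocks. Island peaks had a median width of 293.5 and 348 bp in siORCA 1 and 2 and 274 and 236 bp in control 1 and 2. Outer-stretch peaks had a median of 140 and 143.5 bp in siORCA 1 and 2 and 141 and 131 bp in control 1 and 2. Islands and outer stretches did not overlap in median width in these 4 samples.

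Median fold enrichment was 4.81 and 4.85 in the blocks in siORCA 1 and 2, against 4.54 and 4.26 on the rest. It was 4.20 and 3.96 in the blocks in control 1 and 2, against 3.82 and 3.97 on the rest. The blocks were higher in 3 of 4 samples, by 0.308 on average with an SD of 0.251 (two-sided exact permutation test, p = 0.25). On chromosome 1 it averaged 1.04 and held in all 4 samples (exact p = 0.125), while the block of chromosome 9 alone gave −0.0465 (exact p = 0.875). The blocks did not hold the strongest peaks of these chromosomes. Their highest fold was 59.8 and 31.8 in siORCA 1 and 2 and 28.0 and 27.7 in control 1 and 2, against 206 and 162 on the rest in siORCA 1 and 2 and 170 and 104 in control 1 and 2.

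Single regions show how strong and how variable the island peaks were. The widest region of chromosome 1 found in all samples was chr1:128413536-128414869, covered over 1312 and 925 bp in siORCA 1 and 2 and over 1079 and 562 bp in control 1 and 2. Its fold enrichment was 14.6 and 14.5 in siORCA 1 and 2 and 5.77 and 7.17 in control 1 and 2, so the siORCA lists gave it more than the control lists did. It was followed in width by chr1:128471609-128472805 (1197 bp) and chr1:128304194-128305355 (1162 bp), in the same 1 Mb window. The highest fold in the block was 31.3 in siORCA 1, at chr1:128322725-128323063, and 31.8 in siORCA 2, at chr1:128489550-128490060. In control 1 it was 25.8 at chr1:127156110-127156361, and in control 2 it was 27.7 at chr1:127161616-127161852. The single strongest site therefore lay in the 128 to 129 Mb window in both siORCA lists and in the 127 to 128 Mb window in both control lists. At chr1:127156110-127156361 the fold was 10.5 and 20.4 in siORCA 1 and 2 and 25.8 and 23.2 in control 1 and 2. At chr1:127161616-127161852 it was 12.2 and 24.3 in siORCA 1 and 2 and 25.1 and 27.7 in control 1 and 2. There siORCA 2 stood near the controls. At chr1:128489550-128490060 it was 21.0 and 31.8 in siORCA 1 and 2 and 13.1 and 9.89 in control 1 and 2.

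On chromosome 9 the widest region in all samples was chr9:48245370-48247668, covered over 1604 and 2161 bp in siORCA 1 and 2 and over 1178 and 1624 bp in control 1 and 2. Next came chr9:47730806-47732559 (1754 bp) and chr9:48145268-48146943 (1676 bp). The site chr9:48216603-48217342 had the highest fold of the block in siORCA 2, at 17.6, and in control 2, at 12.6. It also stood at 14.5 in siORCA 1 and 11.0 in control 1, so it was a strong site in every list. The highest fold in siORCA 1 was 18.7, at chr9:48239898-48240357, where the other 3 samples lay between 3.79 and 5.02. In control 1 the highest was 12.5, at chr9:48228708-48229292.

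On chromosome 16 the widest region in all samples was chr16:38595297-38597563, covered over 2097 and 1646 bp in siORCA 1 and 2 and over 574 and 764 bp in control 1 and 2. Both siORCA values exceed both control values there. The next widest, chr16:38549841-38551902, ran the other way in control 1 only, with 672 and 737 bp in siORCA 1 and 2 and 1884 and 563 bp in control 1 and 2. The third was chr16:38943804-38945501 (1698 bp), which control 1 alone covered in full. The highest fold of all blocks was 59.8, in siORCA 1 at chr16:38674179-38674880, a site at 3.37 in siORCA 2 and 4.21 in control 1 and not listed in control 2. At chr16:39278834-39279355 the fold was 22.8 in siORCA 2 and 28.0 in control 1, each the highest of its list in this block, and 7.06 in siORCA 1 and 9.50 in control 2. A narrow site close to the short-arm border, chr16:35509019-35509215, had the highest block fold of control 2, at 11.0, and stood at 55.2 and 15.7 in siORCA 1 and 2 and 5.41 in control 1.

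Sharing between samples, counted as any overlap, did not differ between blocks and rest beyond the spread between samples. Peaks overlap more often by accident where they are denser, as on the rest. No correction was made for density, and its part was not tested. The share of peaks overlapping a peak of another list by at least 1 bp was 66.0% and 89.5% in the blocks in siORCA 1 and 2, against 58.1% and 83.5% on the rest. In control 1 and 2 it was 74.4% and 58.6% in the blocks, against 74.8% and 62.7% on the rest. The mean difference was 2.35 percentage points with an SD of 5.60 (two-sided exact permutation test, n = 4, p = 0.5), higher in 2 of 4 samples. With an overlap of at least 50% of the peak it was 5.87 points and positive in all 4 samples (exact p = 0.125, the smallest possible).

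Of 940 merged regions in the blocks, 143, or 15.2%, were listed in all 4 samples and 522, or 55.5%, in 1 sample only. On the rest, 11.4% of 93217 merged regions were listed in all 4 samples and 58.1% in 1 only. The Jaccard index, the covered length common to a pair of lists over that covered by either, averaged 0.290 in the blocks (0.212 to 0.427 over the 6 pairs) and 0.232 on the rest (0.187 to 0.290). It was higher in the blocks in all 6 pairs of lists, by the most for siORCA 1 with siORCA 2 (0.427 in the blocks and 0.285 on the rest). The pairs share lists, and this was not tested.

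Within the blocks, sharing was uneven between zones. All 4 lists held 111 of 650 island regions (17.1%) and 23 of 154 outer-stretch regions (14.9%). Of these 23, 22 were on chromosome 1, where they made up 21.4% of 103 outer regions, and 1 was on chromosome 16, at chr16:50860432-50860672. The 22 ran over chr1:129434489-141289194, were 155 to 373 bp wide and lay a median of 412 kb apart. Chromosome 9 had none in its outer stretch. Among the outer stretches, the sites that recur in every sample thus lay on chromosome 1, with the exception on chromosome 16 given above. Narrow regions in all 4 lists also lay in other zones, such as chr1:127156110-127156361 (252 bp) in an island and chr16:35509019-35509215 (197 bp) at a short-arm end.

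**Figure D4:**
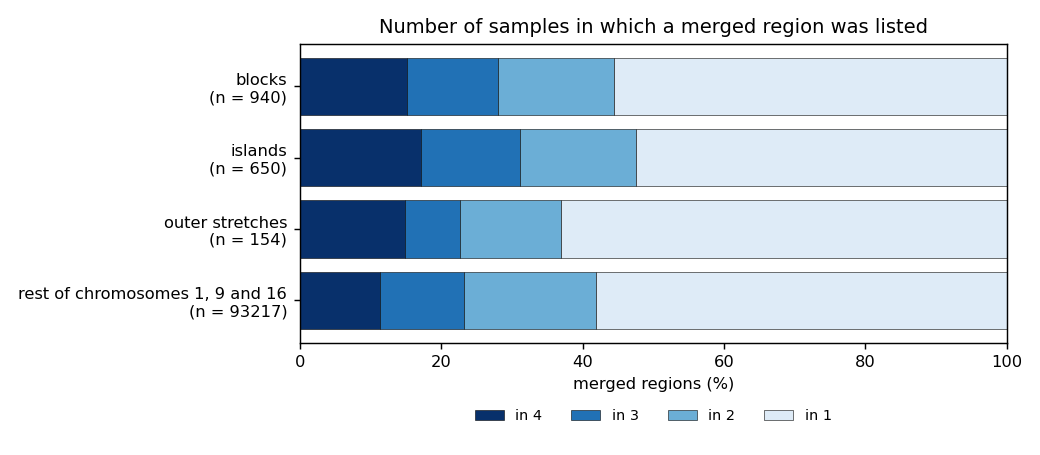
Share of merged regions listed in 4, 3, 2 or 1 of the samples, in percent, for the blocks, their islands, their outer stretches and the rest of chromosomes 1, 9 and 16. Regions in all samples make up 15.2% in the blocks and 11.4% on the rest, and regions in 1 sample make up 55.5% in the blocks and 58.1% on the rest.

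The next comparison sets siORCA against control within the blocks. The share of a list's peaks that lay in the blocks was 0.158% and 0.192% in siORCA 1 and 2, against 0.220% and 0.208% in control 1 and 2. The groups did not overlap, with means of 0.175 ± 0.0245% in siORCA and 0.214 ± 0.00879% in control (SD, n = 2 each; two-sided exact permutation test, p = 0.33, the smallest this design allows). The groups overlapped once peaks under a −log10 q of 3 were left out, at 0.171% and 0.240% in siORCA 1 and 2 and 0.312% and 0.212% in control 1 and 2 (exact permutation p = 0.667). Wilson 95% intervals for the full lists, which cover counting error only, were 0.145 to 0.172% and 0.174 to 0.213% in siORCA 1 and 2, and 0.200 to 0.243% and 0.190 to 0.227% in control 1 and 2. The share of covered length in the blocks was 0.224% and 0.222% in siORCA 1 and 2, against 0.223% and 0.200% in control 1 and 2. There the groups overlapped, at 0.223 ± 0.00165% in siORCA and 0.211 ± 0.0162% in control (SD, n = 2 each; exact permutation p = 0.667).

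No window of the blocks passed the threshold between siORCA and control. Only 5 of the 67 block windows had enough covered length to enter the test, a mean of at least 5 kb over the 4 samples. In limma with Benjamini-Hochberg adjustment over 2464 windows, 0.0812% of windows over the genome were called higher in siORCA and 0% were called lower. The block window with the smallest p was chr1 from 128 to 129 Mb, covered over 72787 and 54722 bp in siORCA 1 and 2, against 38825 and 33924 bp in control 1 and 2. Its log2 difference was 0.54 with an SE of 0.20 (limma, unadjusted p = 0.0089, adjusted p = 0.931), and it was the only block window with an unadjusted p under 0.05. The window of chr16 from 39 to 40 Mb had 8992 and 7350 bp in siORCA 1 and 2, against 4552 and 4991 bp in control 1 and 2, a log2 difference of 0.42 (SE 0.50). For chr9 from 48 to 49 Mb the log2 difference was −0.03 (SE 0.22). These differences are on the scale of log2 of covered length plus 1000 bp over the sample's total, which pulls sparse windows towards the ratio of the list totals. A window with no peak in any list has −0.25 on it, so the sign alone of a sparse window says little.

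In the islands, both siORCA lists covered more than both control lists in 49 of the 111 regions found in all samples (44.1%) and less in 9. Among such regions on the rest of the chromosomes, 24.3% were wider in siORCA without overlap between the groups and 11.7% narrower. The siORCA 1 list also covers the most length in total, 86.2 Mb. Since the islands were drawn after the values were seen, this difference has no test. In the island of chromosome 1, 31 of 53 were wider and 1 narrower, and in that of chromosome 16, 11 of 27 were wider and 2 narrower. On chromosome 9, 7 of 31 were wider and 6 narrower. Merged regions listed in both siORCA samples and neither control numbered 54 of 940 in the blocks, or 5.74%, and those in both controls and neither siORCA sample numbered 32, or 3.40%. Over the whole series these patterns made up 5.44% and 1.67% of merged regions. Median island peak width on chromosome 1 was 401 and 419 bp in siORCA 1 and 2, against 248 and 271 bp in control 1 and 2, and median fold was 6.43 and 6.45 in siORCA 1 and 2, against 4.33 and 4.10 in control 1 and 2. On the rest of chromosome 1 the median fold was 4.55 and 4.26 in siORCA 1 and 2. It was 3.81 and 3.96 there in control 1 and 2, so fold did not overlap between the groups outside the block either. In the other islands the groups overlapped in median width, at 203.5 and 317 bp in siORCA 1 and 2 and 245 and 255 bp in control 1 and 2 on chromosome 9, and at 224 and 307.5 bp in siORCA 1 and 2 and 332 and 199 bp in control 1 and 2 on chromosome 16.

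The widest regions of either pattern were all in islands. Those in siORCA alone were chr16:38384615-38386232 (1602 and 529 bp in siORCA 1 and 2), chr1:127770389-127771847 (1419 and 259 bp) and chr16:39152514-39153714 (1197 and 1194 bp). The last is the only one that both siORCA lists covered over nearly its whole width. Those in control alone were chr1:126827212-126828227 (1016 and 486 bp in control 1 and 2), chr1:128454760-128455559 (740 and 115 bp) and chr9:48172888-48173661 (146 and 774 bp). Their fold enrichment lay between 3.58 and 6.51 in the siORCA lists and between 3.39 and 4.09 in the control lists, all under the highest fold of each block given above.

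In peak counts the groups overlapped in the islands and did not overlap in the outer stretches. The islands held 402 and 296 peaks in siORCA 1 and 2 and 279 and 320 in control 1 and 2. For each 10000 listed peaks, the islands held 12.2 and 14.9 in siORCA 1 and 2 and 15.4 and 13.6 in control 1 and 2. The outer stretches held 35 and 48 peaks in siORCA 1 and 2 against 79 and 107 in control 1 and 2, although the siORCA 1 list is the longest of all. Per 10000 listed peaks this was 1.06 and 2.42 in siORCA 1 and 2, against 4.36 and 4.54 in control 1 and 2. Most of the difference in number was on chromosome 1, with 25 and 37 peaks in siORCA 1 and 2 against 59 and 78 in control 1 and 2. On chromosome 16 there were 3 and 11 in siORCA 1 and 2, against 19 and 18 in control 1 and 2. On chromosome 9 the groups overlapped, with 7 and 0 in siORCA 1 and 2 and 1 and 11 in control 1 and 2. Summed over the 3 blocks, the order held with only peaks at a −log10 q of at least 3 (19 and 37 in siORCA 1 and 2, 51 and 49 in control 1 and 2) and with all lists shortened to the same covered length (17 and 45 in siORCA 1 and 2, 79 and 90 in control 1 and 2). On chromosome 16 alone it was lost at the stricter q, with 1 and 8 peaks in siORCA 1 and 2 and 12 and 5 in control 1 and 2. Since the outer stretches were drawn after the values were seen, these counts have no test.

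Without the filter on covered length, 45 of the 67 block windows held a peak in any list. Of these 45, 21 (46.7%) were lower in siORCA than in control without overlap and 3 (6.67%) were higher, and 0 passed the limma threshold (smallest adjusted p = 0.902, 1 with an unadjusted p under 0.05). Over all genome windows with a peak in any list 18.2% were lower and 9.1% higher in this way. Among sparse windows outside the blocks, those with a peak and a mean under 5 kb, 19.4% were lower and 0.533% higher. A window needs only a few peaks to be counted in this way. At a −log10 q of at least 3, 15 of 31 block windows with a peak were lower, against 8.35% over the genome. With lists of the same covered length 18 of 39 were lower, against 30% over the genome. By block, 13 of 16 windows with a peak were lower on chromosome 1, 2 of 13 on chromosome 9 and 6 of 16 on chromosome 16, with all peaks listed. These shares are descriptions, and their difference from the genome was not tested.

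All 13 windows of chr1 from 129 to 142 Mb were lower in siORCA, both as a share of the list and in covered bp not divided by the total. In undivided bp, 2.35% of genome windows with a peak and 4.26% of sparse windows outside the blocks were lower without overlap. The 13 windows together were covered over 3944 and 6626 bp in siORCA 1 and 2, against 9861 and 12571 bp in control 1 and 2. Their log2 differences lay between −0.90 and −0.36 with a median of −0.61 (limma without the filter, adjusted p = 0.902 for each), on the scale that gives −0.25 to an empty window. In chr1 from 139 to 140 Mb the siORCA lists held 0 bp both times, against 242 and 510 bp in control 1 and 2. These windows were picked after their values were seen.

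**Figure D5:**
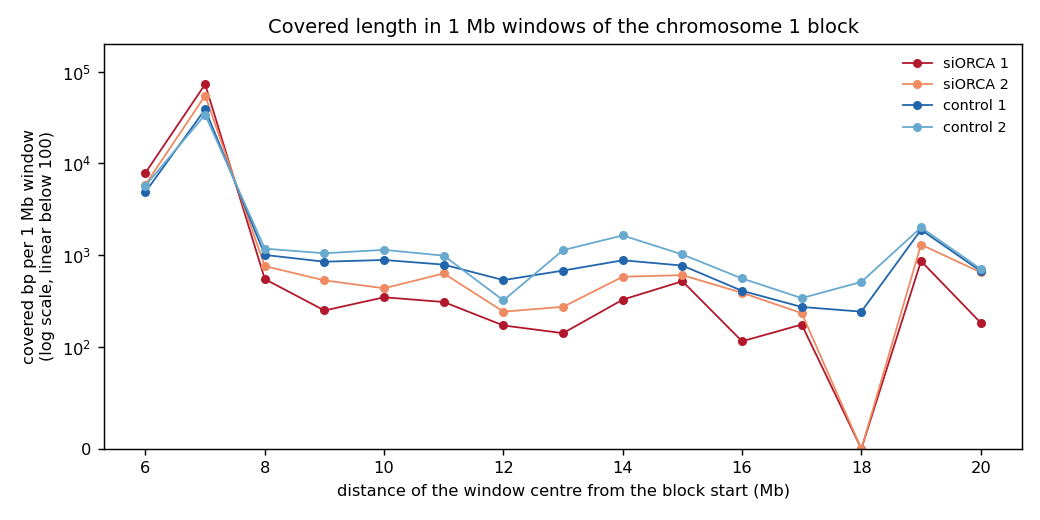
Covered length per 1 Mb window of the chromosome 1 block, in bp on an axis that is logarithmic above 100, by distance of the window's centre from the block start in Mb. The siORCA samples lie above control in the island window of 128 to 129 Mb and below control in all 13 windows from 129 to 142 Mb.

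The recurrent sites of the outer stretches were most often lowest in siORCA 1. Over the 23 regions in all lists, the median covered length was 143 and 187 bp in siORCA 1 and 2 and 178 and 189 bp in control 1 and 2. Of them, 10 (43.5%) were narrower in siORCA without overlap and 0 wider, where the rest of the chromosomes had 11.7% narrower and 24.3% wider. The regions of the outer stretches were drawn after their values were seen, and this difference has no test. The siORCA 1 list had the lowest covered length in 18 of 23 and the lowest fold in 22 of 23, with a median fold of 5.24 in siORCA 1 and 8.16 in siORCA 2, against 8.47 in control 1 and 7.93 in control 2. The widest of these sites, chr1:140063009-140063381, was covered over 301 and 353 bp in siORCA 1 and 2 and 351 and 373 bp in control 1 and 2. Its fold was 5.92 and 12.4 in siORCA 1 and 2 and 8.95 and 9.60 in control 1 and 2. At chr1:140523161-140523409 the fold was 6.74 and 9.97 in siORCA 1 and 2 and 12.5 and 15.6 in control 1 and 2, an order in which the groups do not overlap. The groups overlapped in fold at chr1:131482181-131482541, with 6.66 and 8.04 in siORCA 1 and 2 and 8.59 and 7.31 in control 1 and 2. They also overlapped at chr1:138113715-138113986, with 4.42 and 8.89 in siORCA 1 and 2 and 8.02 and 9.86 in control 1 and 2. At chr1:137748822-137749119 they overlapped too, with 3.39 and 8.16 in siORCA 1 and 2 and 6.93 and 9.08 in control 1 and 2. At chr1:137748822-137749119, at the end of one of the long bare stretches, 115 and 267 bp were covered in siORCA 1 and 2 and 292 and 256 bp in control 1 and 2. At these sites siORCA 1 was most often the lowest, and at 10 of the 23 siORCA 2 was below both controls in covered length as well.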

How the data were processed

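BWA, SAMtools, MACS2 and T2T-CHM13 are named in the submitters' processing notes, with versions, settings and any genomic DNA background not given in the sources used here. For each sample the authors deposited 1 list of broad peaks, with a score, a fold enrichment (linear ratio) and −log10 p and q. The lowest deposited −log10 q was between 1.30 and 1.31 in every list. The deposited score was not used in any result.

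From these lists, peaks per Mb, widths, overlaps (at least 1 bp), stretches of at least 100 kb without a peak and merged regions were computed in Python 3.11.15 (numpy 2.4.6, pandas 2.3.3, scipy 1.17.1). Chromosome ends were taken as the furthest peak end. Blocks and rest were compared by exact permutation over 4 samples, flipping each sample's sign. Groups were compared by exact permutation and, over 1 Mb windows genome-wide, by limma 3.58.1 in R 4.3.3 (pseudocount 1000 bp, filter 5 kb, threshold 0.05). The limma fit was run on simulated windows that all had the same spread, which does not give its power in the block windows.

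Regions were named by rule. Per block it takes the 3 widest in all 4 samples, the highest fold per list, the 3 longest stretches without a peak, and the fullest and emptiest window. Over all blocks it takes the windows with the smallest p and the 3 widest regions in 1 group only. Outer-stretch sites were added after their values were seen. The members and lists were chosen with earlier results of these data known. Replicate numbers did not pair the samples (r = −0.458 between the deviations of siORCA 1 and control 1 over 2464 windows). No T2T-CHM13 sequence or annotation was used here.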

Additional observations from a re-analysis of the deposited data

Results flagged for a closer look

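The difference in median peak width between blocks and rest went one way in both siORCA samples and the other way in both control samples. It averaged 65.25 bp in siORCA and −14 bp in control, 79.25 bp apart. The difference between the groups was not tested.

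The difference in the share of peaks found in another list went the same ways. It averaged 6.96 percentage points in siORCA and −2.27 points in control, 9.23 points apart, and this was not tested either. The negative sign in control did not hold in every setting. At a −log10 q of at least 3 control 2 gave 4.10 points, with lists of the same covered length control 1 gave 1.63 points, and with an overlap of at least 50% of the peak control 1 and 2 gave 3.62 and 0.894 points. Block peaks on chromosome 1 gave the widest gap in width, with differences of 156 and 100 bp in siORCA 1 and 2 and −37 and −18 bp in control 1 and 2.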

How the results depend on the processing

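Density (log2 −4.62 to −3.29 over 12 alternatives), mean width difference (1 to 50.3 bp) and empty length (60.8 to 86.5 points) kept their direction under a stricter q, lists of the same covered length, trimmed borders, each block alone, another reference region and another measure. For width only the mean kept its sign, with 2 of 4 samples positive in the main setting. Control 1 and 2 gave −30 and −17 bp at the stricter q, −19 and −11 bp at the same covered length and −17 and −11 bp with trimmed borders. On chromosome 9 alone all 4 samples were positive. Sharing turned to −1.43 points (exact p = 0.75) for the block of chromosome 16 alone, and the fold difference to −0.0465 (exact p = 0.875) for that of chromosome 9 alone. The cause was not tested. With 1 sample left out, density ran from −3.95 to −3.81, width from 9.83 to 40.5 bp, sharing from 2.22 to 5.17 points, empty length from 78.6 to 83.9 points, fold from 0.212 to 0.413, the share of peaks (siORCA minus control) from −0.0562 to −0.0215 points and the share of covered length from 3.29e-05 to 0.0229 points. The value near 0 is that without control 2. Block windows called stayed at 0 in all settings, also with the replicate number as a block (share of peaks −0.0389 and covered length 0.0115, exact p = 0.5 each). They stayed at 0 with the pairs crossed as well, a setting added after seeing the data. In limma with crossed pairs, 246 of 2464 windows over the genome had an unadjusted p under 0.05, against 76 in the main setting. The smallest limma adjusted p of a block window was 0.190 with crossed pairs and 0.931 in the main setting. Depth is unknown.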
